A study of Mus musculus with 32 samples.

Results

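Protocadherins, the largest subfamily of the cadherin cell adhesion proteins, were followed in mouse brain after a stroke model. The members were all genes whose name on the array begins with Pcdh, 59 of the 18118 genes named in the tables of each tissue, read by 65 of 25697 probes. They comprised 8 alpha, 22 beta and 20 gamma genes, which lie in 3 neighbouring clusters, and 9 non-clustered genes on other chromosomes. Pcdh1, which the array lists under another name, was left out by this rule. Its probe ILMN_1260020 was detected on 32 of 32 arrays and ILMN_2597660 on 23. Names alone placed a gene in the set, but the family was taken up because one member, Pcdha10, had already been seen to be low in the cortex 2 h after reperfusion. That value, and those of Pcdha10 that share its sham arrays, are therefore given as descriptions, without a test. The other p-values come from arrays whose results were partly known, and they are no independent support for a response of the family.

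Male C57BL/6J wild-type mice of 8 to 10 weeks had the middle cerebral artery blocked by an intraluminal suture for 2 h, followed by reperfusion (ischaemia and reperfusion, I/R). The sham mice had the anaesthetic and a neck incision, with no time after surgery stated. RNA of the right striatum or the right cortex was read on bead arrays. The groups were striatum after 2 h, 8 h and 24 h of reperfusion and sham striatum, and cortex after 2 h, 8 h and 24 h of reperfusion and sham cortex, with 4 arrays each and 32 in all. Whether a striatum and a cortex array came from the same mouse is not stated, and p-values measure the spread between these arrays. On their slides the sham arrays sat at position A or E, and the I/R arrays at F (2 h), G (8 h) or H (24 h), so the position and the time of an I/R group cannot be told apart. The slides of striatum arrays held no cortex array, so slide and tissue cannot be told apart either.

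Median signals ran from 57.2 to 103.7 intensity units on striatum arrays and from 70.0 to 88.7 on cortex arrays. The tissue labels met their markers only in part. Genes of cortical excitatory neurons were lower in sham striatum for 8 of 8 tested, and genes of thalamus and midbrain were higher there for 10 of 10. Genes of striatal projection neurons differed for 0 of 7: the dopamine-signalling gene Ppp1r1b had a mean log2 level of 11.52 in sham striatum and 11.58 in sham cortex. Striatal genes were thus read in pieces labelled cortex, and thalamic and midbrain genes in pieces labelled striatum. In such bulk tissue, fewer cells of a type and less RNA per cell cannot be told apart.

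Clustered protocadherins give single neurons a surface identity. Each neuron switches on a few alpha, beta and gamma promoters, a choice that involves the DNA-binding protein CTCF, the cohesin ring and DNA methylation, and the proteins bind their own kind on other cells. In the alpha and gamma clusters, each variable first exon is spliced to constant exons common to the cluster, whereas a beta gene is one exon with no constant part. The last genes of the alpha and gamma clusters, called C-type (Pcdhac1, Pcdhac2, Pcdhgc3, Pcdhgc4 and Pcdhgc5), are not subject to that random choice. Non-clustered protocadherins each have their own promoter and act in axon growth, circuit formation and synapse assembly. Some of them, among them Pcdh10, bind the WAVE complex, which drives actin branching.

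In the mouse genome (GRCm38.p6, RefSeq gene positions) all 50 clustered members lie on chromosome 18, the alpha genes between 36939205 and 37188897, the beta genes between 37264998 and 37521419 and the gamma genes between 37661775 and 37841873. Of the 9 non-clustered members 5 lie on chromosome 14, and Pcdh8, Pcdh17, Pcdh20 and Pcdh9 follow one another there between 79766772 and 93892834. Pcdh10 and Pcdh18 are on chromosome 3, Pcdh7 on chromosome 5 and Pcdh15 on chromosome 10. Pcdh21 is the older name of Cdhr1, a cadherin of photoreceptors and olfactory bulb neurons. Where in a transcript the probes sit was not analysed here, so whether an alpha or gamma probe reads its variable exon or the shared exons is unknown. The beta genes are similar to one another, so signal from a near copy cannot be told apart from a gene's own.

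Most gamma genes gave no signal, whereas nearly all non-clustered genes did. A probe was detected where its signal exceeded that of control probes at a detection p under 0.05. On all 32 arrays, detection held for 6 of 9 non-clustered, 5 of 22 beta, 2 of 8 alpha and 0 of 20 gamma members. On no array was detection reached for 11 gamma, 10 beta, 1 alpha (Pcdha9) and 1 non-clustered member (Pcdh18), 23 of 59 in all. A member was tested in a tissue if it was detected on all 4 arrays of at least 1 group there. This left 21 members in striatum (4 alpha, 8 beta, 2 gamma, 7 non-clustered) and 20 in cortex (5 alpha, 8 beta, 0 gamma, 7 non-clustered), 22 in either. Just inside this limit, Pcdha7 was detected on 4 sham cortex arrays, and on at most 2 arrays of any other group. Just outside it, Pcdhgc3 was detected on 3 of 4 sham cortex arrays and Pcdhgc4 on 3 of 4 sham striatum arrays. A gene that is silent in sham entered only if it was detected after I/R.

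**Figure D1:**
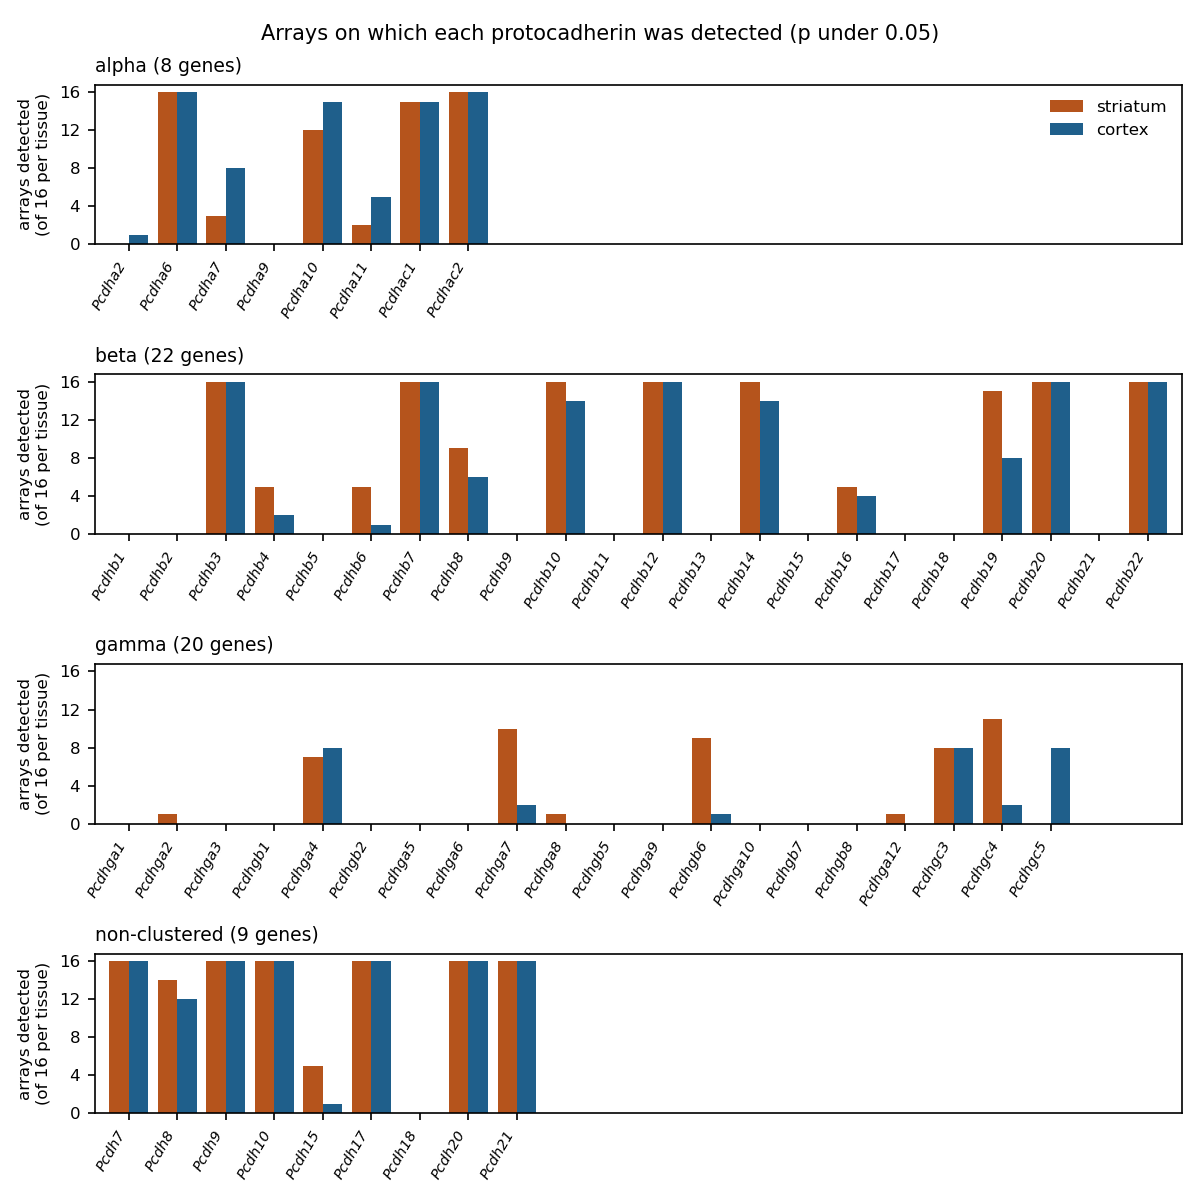
Number of arrays, of 16 per tissue, on which each of the 59 protocadherins was detected (detection p under 0.05), with striatum bars left of cortex bars and the clustered genes in their order along the chromosome. Full bars stand for genes read on every array of a tissue, such as Pcdha6 and Pcdhac2, and gaps for genes never detected, such as 11 of the 20 gamma genes.

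The alpha genes were read best at the C-type end of their cluster and at Pcdha6, a gene of the variable set. Pcdha6 and Pcdhac2 were detected on 16 of 16 arrays in both tissues, Pcdhac1 on 15 of 16 in both, and Pcdha10 on 12 striatum and 15 cortex arrays. In the beta cluster neighbours in number differed: Pcdhb20 and Pcdhb22 were detected on all 32 arrays, and Pcdhb21 on 0. Among the C-type gamma genes, detection differed in count between the tissues. Pcdhgc4, which is known in mice for its role in the survival of neurons, was detected on 11 striatum and 2 cortex arrays. Pcdhgc5, a partner of GABA-A receptors, was detected on 0 striatum and 8 cortex arrays. Its mean log2 level was 4.88 ± 0.17 in sham striatum and 5.52 ± 0.29 in sham cortex (SD, n = 4 each). Both are near the detection limit, and neither gene was tested.

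The windows before the start sites of the 3 non-clustered genes that passed the test in a comparison with sham are shown, since they are the called members that have such a window in the RefSeq table. Of the 9 non-clustered members 8 have an entry there. Each line gives the 250 bases before a listed start, 5' to 3' on the gene's strand, and capitals mark matches to any motif searched for. The Pcdh17 window ends where the gene begins (84443563). Those of Pcdh7 and Pcdh9 lie within the span of the gene (57716145 to 58133236 and 93013700 to 93892834). They therefore do not precede its outermost start, which was not searched. Pcdh7 is at chr5:57717831-57718080 (plus strand), Pcdh9 at chr14:93890670-93890919 (minus strand, the window of 1 of its 2 start sites) and Pcdh17 at chr14:84443313-84443562 (plus strand).
Pcdh7: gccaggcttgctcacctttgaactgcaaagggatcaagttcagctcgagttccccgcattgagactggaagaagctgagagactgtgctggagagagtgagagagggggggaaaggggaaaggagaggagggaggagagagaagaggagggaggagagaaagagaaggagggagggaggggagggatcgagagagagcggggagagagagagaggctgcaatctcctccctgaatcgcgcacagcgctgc
Pcdh9: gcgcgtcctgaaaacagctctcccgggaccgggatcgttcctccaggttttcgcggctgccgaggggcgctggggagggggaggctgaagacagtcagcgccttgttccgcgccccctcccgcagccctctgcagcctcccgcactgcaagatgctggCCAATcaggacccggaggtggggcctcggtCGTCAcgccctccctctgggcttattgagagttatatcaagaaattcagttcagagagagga
Pcdh17: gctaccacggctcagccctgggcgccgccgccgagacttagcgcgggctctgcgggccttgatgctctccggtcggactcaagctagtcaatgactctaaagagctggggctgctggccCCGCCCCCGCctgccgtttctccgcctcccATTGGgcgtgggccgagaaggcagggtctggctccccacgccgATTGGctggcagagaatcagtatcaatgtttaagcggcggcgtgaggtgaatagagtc

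The motifs were searched on both strands: TGACGTCA and its part TGACG (CREB and ATF factors), TGANTCA (AP-1), GCGGGGGCG (EGR factors), ACGTG (HIF), GGGCGG (Sp factors), CCAAT and TATAAA. The Pcdh7 window held none of them and had 7 CpG pairs. The Pcdh9 window held 1 TGACG, which 17.77% of all 32851 windows of this length hold, and 1 CCAAT, which 33.85% hold. The Pcdh17 window held 1 GCGGGGGCG (2.57% of windows), which overlaps its 1 GGGCGG (32.74%), and 2 CCAAT. The windows of Pcdh9 and Pcdh17 had 63.6% and 64.8% G and C with 18 and 21 CpG pairs, above the median window of 52.4% with 6 pairs. None of the 3 windows held TGACGTCA or TGANTCA. A match is a string of letters, not a bound site.

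Comparisons with sham gave few calls. A gene was called where limma's moderated test, with the variance pooled over the 4 groups of a tissue, gave a Benjamini-Hochberg adjusted p under 0.05 over all tested genes. Differences are given on the log2 scale ± standard error. In striatum, 0 of 21 members were called at 2 h (0.182% of all tested genes), 2 at 8 h (3.51%) and 3 at 24 h (17.6%). In cortex, 2 of 20 were called at 2 h (1.16%), 2 at 8 h (7.13%) and 3 at 24 h (14.1%). The shares of members at 24 h lay near those of all genes. Each cortex count includes Pcdha10. Its 2 h value is that for which the family was taken up, and its later values share the sham arrays. At an unadjusted p under 0.05 there were 2 members in striatum at 2 h (10.4% of all tested genes), 5 at 8 h (19.9%) and 6 at 24 h (32.8%). In cortex there were 5 at 2 h (15.4%), 10 at 8 h (23.5%) and 10 at 24 h (30.8%), Pcdha10 among them at each time. In all, 6 members were called against sham: Pcdha10, Pcdhb12, Pcdhb22, Pcdh7, Pcdh9 and Pcdh17.

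**Figure D2:**
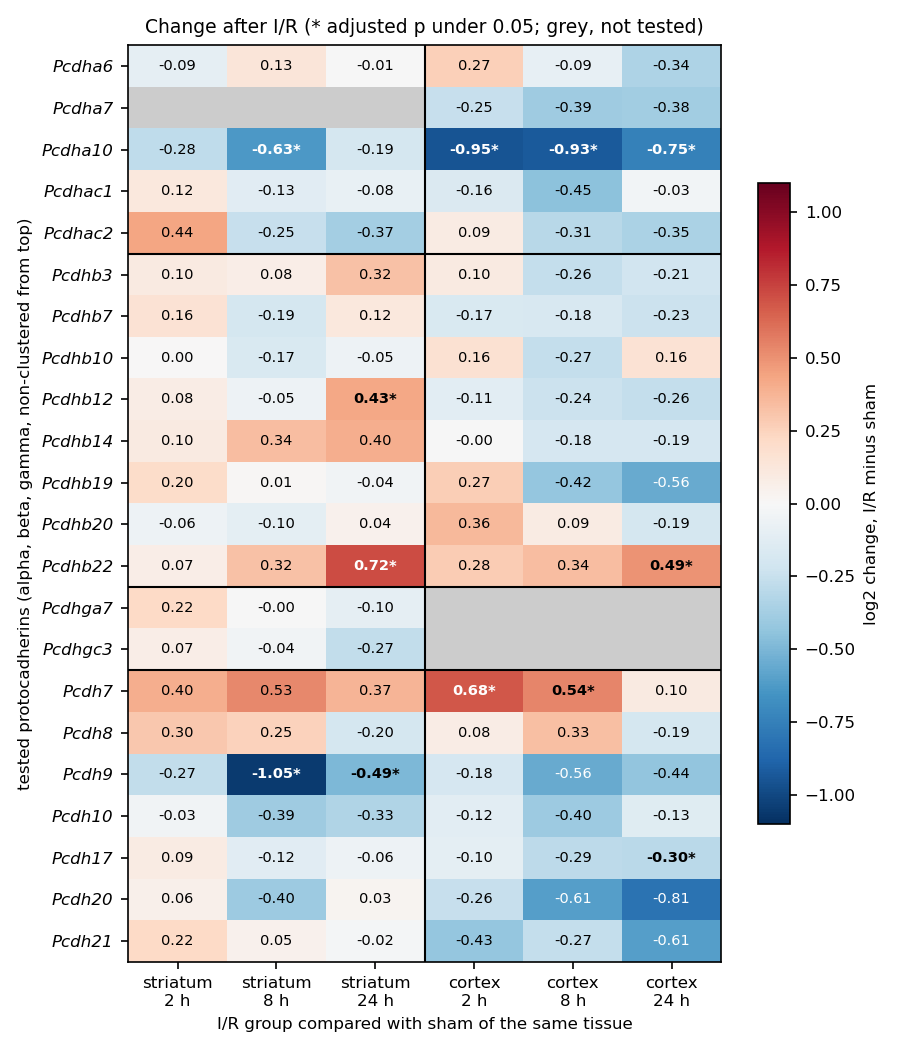
Log2 change (I/R minus sham of the same tissue) of the 22 tested protocadherins, one row per gene and one column per comparison, with blue for lower and red for higher after I/R. Stars mark an adjusted p under 0.05, and grey cells were not tested. The stars of Pcdha10 in cortex are no test, since its 2 h value was known beforehand and the later ones share its sham arrays. The lowest value is Pcdh9 in striatum at 8 h (-1.05) and the highest Pcdhb22 in striatum at 24 h (0.72).

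Among the alpha genes Pcdha10 stood out. Its log2 level in cortex was 6.72, 6.32, 6.67 and 6.24 in sham and 5.44, 5.43, 5.77 and 5.50 after 2 h of reperfusion. After 8 h it was 5.67, 5.27, 5.47 and 5.84, and after 24 h 5.81, 6.21, 5.49 and 5.46. All 12 I/R arrays lay below all 4 sham arrays, though 1 array at 24 h (6.21) came close to the lowest sham array (6.24). The difference was -0.95 ± 0.18 at 2 h, the value known beforehand. It was -0.93 ± 0.18 at 8 h and -0.75 ± 0.18 at 24 h. Both share the 4 sham arrays with the first and are therefore descriptions too, without a test. Within each of the 3 slides that hold sham arrays, the 2 h differences were -0.73, -1.24 and -1.08, those of 8 h were -0.40, -1.40 and -0.85, and those of 24 h were -0.78, -0.47 and -0.71. The size depended on the processing. Over the alternatives named below, the 2 h difference ran from -0.95 to -0.19. That at 8 h ran from -0.93 to -0.19, and that at 24 h from -0.75 to -0.16.

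In striatum, measured on separate arrays, Pcdha10 had log2 levels of 6.02, 5.92, 5.75 and 5.38 in sham and 5.67, 5.39, 5.34 and 5.55 at 2 h. At 8 h they were 5.0, 5.33, 5.10 and 5.13, and after 24 h 5.78, 5.72, 5.14 and 5.66. Only the 8 h arrays lay wholly below sham. It fell by 0.63 ± 0.17 on the log2 scale at 8 h (limma adjusted p = 0.0425), when it was detected on 1 of 4 arrays, so that the size of the fall rests on 3 values not above background. This call was lost when any 1 of 7 of the 8 arrays was left out (all except sham array 4), with adjusted p up to 0.138. The differences at 2 h (-0.28 ± 0.17, adjusted p = 0.599) and 24 h (-0.19 ± 0.17, adjusted p = 0.436) did not pass.

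The other alpha genes were called in no comparison with sham. In cortex their differences from sham at 8 h were -0.45 for Pcdhac1, -0.39 for Pcdha7, -0.31 for Pcdhac2 and -0.09 for Pcdha6, beside a median of -0.01 over all genes. At 24 h they were -0.03 for Pcdhac1, -0.38 for Pcdha7, -0.35 for Pcdhac2 and -0.34 for Pcdha6, beside -0.03. Pcdha7 entered the cortex tests through its sham arrays alone, so a value below sham was favoured by the filter. Pcdhac2, which in mice keeps the axons of serotonin neurons apart, showed a step between 2 h and 24 h in both tissues. In striatum its log2 level was 6.92, 6.98, 6.73 and 6.86 in sham, 7.10, 7.41, 7.27 and 7.45 at 2 h, 6.40, 6.60, 6.71 and 6.79 after 8 h and, after 24 h, 6.23, 6.64, 6.38 and 6.76. The 2 h arrays were all above sham, without a call (0.44 ± 0.14, adjusted p = 0.251), and all 4 24 h arrays were below the 2 h arrays. With the slide as a block, Pcdhac2 was also called below sham in striatum at 24 h (-0.46 ± 0.13, limma adjusted p = 0.0269). In cortex it was 7.63, 7.45, 7.49 and 7.64 in sham, 7.69, 7.70, 7.64 and 7.56 at 2 h, 7.47, 7.15, 7.12 and 7.23 after 8 h and, after 24 h, 7.04, 7.46, 7.35 and 6.95.

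Between 24 h and 2 h of reperfusion, 2 of 21 members were called in striatum (18.3% of all tested genes) and 5 of 20 in cortex (13.7%). The cortex count includes Pcdhb19, which entered the cortex tests through its 2 h group alone. Pcdhac2 was lower at 24 h than at 2 h in striatum (-0.81 ± 0.14, limma adjusted p = 0.00196) and in cortex (-0.44 ± 0.12, adjusted p = 0.022). The cortex call was lost without 24 h array 1 or 4 or without 2 h array 2 or 3. Pcdha6, the alpha gene with the brightest probe, was at 8.98, 9.43, 9.17 and 8.99 in cortex at 24 h, against 9.94, 9.85, 9.58 and 9.62 at 2 h and 9.64, 9.51, 9.46 and 9.31 in sham. It was lower at 24 h than at 2 h (-0.61 ± 0.12, adjusted p = 0.00469), with no overlap, while its 24 h difference from sham did not pass (-0.34 ± 0.12, adjusted p = 0.0725). In striatum Pcdha6 ran from 8.72 to 9.52 over all 16 arrays, with group means of 9.10 in sham, 9.0 after 2 h, 9.23 after 8 h and 9.09 after 24 h. Pcdha7 was tested in cortex only, and it was detected on 4 of 4 sham arrays and on 1, 2 and 1 of 4 arrays at 2 h, 8 h and 24 h. Pcdhac1 had group means between 5.47 and 5.71 in striatum and between 5.50 and 5.95 in cortex.

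Among the 8 tested beta genes, calls against sham were rises, and they came at 24 h. Called or not, 6 of the 8 lay below sham in cortex at 24 h (median -0.20, beside -0.03 over all genes). In striatum at 24 h 2 of the 8 did (median 0.22, beside -0.02). Pcdhb22, the last gene of the beta cluster, rose in both tissues. In striatum its log2 level was 7.92, 7.28, 7.31 and 7.29 at 24 h, against 6.47, 6.76, 6.83 and 6.86 in sham, and in cortex 6.82, 6.77, 6.92 and 7.15 at 24 h, against 6.44, 6.18, 6.40 and 6.67 in sham. No 24 h array overlapped its sham group in either tissue, and the striatum mean was raised by array 1 (7.92), which stood apart from the other 3. The change was 0.72 ± 0.15 in striatum (limma adjusted p = 0.00519) and 0.49 ± 0.13 in cortex (adjusted p = 0.019). The striatum call held when any single array was left out, and the cortex call was lost without sham array 2 or 24 h array 4. With the series matrix values the striatum call did not pass (limma adjusted p = 0.0581). The cortex call was also lost without a detection filter and with the compared groups alone. Group means of Pcdhb22 were 6.73 in sham, 6.80 after 2 h, 7.05 after 8 h and 7.45 after 24 h in striatum, and 6.42, 6.70, 6.76 and 6.92 in cortex in the same order. In striatum it was also higher at 24 h than at 2 h (0.65 ± 0.15, adjusted p = 0.00825). Within slides the 24 h differences were 0.45, 0.45 and 1.31 in striatum and 0.48, 0.37 and 0.51 in cortex. Over the alternatives in processing, the 24 h difference ran from 0.51 to 0.74 in striatum and from 0.16 to 0.51 in cortex.

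Some markers of other cells were also higher at 24 h, but not all lists rose. In striatum the median list mean of oligodendrocyte genes was 10.91 at 24 h, against 11.20 in sham, and that of microglia genes 7.99, against 8.14. That of astrocyte genes was 10.39, against 10.24. Macrophage and neutrophil genes rose for 3 of 7 in striatum (median 1.47), with list means of 6.46 to 8.81 at 24 h, against 6.19 to 7.01 in sham, and for 7 of 7 in cortex. Endothelial genes rose for 1 of 9 in striatum (median 0.53), with list means of 8.03 to 8.26 at 24 h, against 7.67 to 7.87 in sham. In cortex endothelial genes rose for 5 of 9 (median 0.54), with list means of 7.78 to 8.34 at 24 h, against 7.44 to 7.68 in sham. The part of any of these cells in the Pcdhb22 and Pcdhb12 values was not tested.

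Pcdhb12 was at 6.31, 6.94, 6.78 and 6.66 in striatum at 24 h, against 6.25, 6.24, 6.22 and 6.28 in sham, so that the lowest 24 h array lay just above the sham arrays. It rose by 0.43 ± 0.14 (limma adjusted p = 0.0454), with within-slide differences of 0.50, 0.73 and 0.07. Leaving out any 1 of 7 of the 8 arrays, all but 24 h array 1, ended the call, and so did the slide as a block (0.38 ± 0.15, adjusted p = 0.0874). In cortex Pcdhb12 was at 6.26, 6.89, 6.63 and 5.98 at 24 h, against 6.81, 6.61, 6.76 and 6.64 in sham, with overlapping groups (-0.26 ± 0.20, adjusted p = 0.385). Pcdhb14 was at 6.21, 6.04, 6.08 and 6.23 in striatum at 24 h, against 5.56, 6.20, 5.51 and 5.69 in sham, and did not pass (0.40 ± 0.15, adjusted p = 0.0733).

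In cortex 2 beta genes were lower at 24 h than at 2 h, Pcdhb19 as a description only. It entered the cortex tests through the 2 h group alone, so a lower level at 24 h was favoured by the filter. Pcdhb19 was detected on 4 of 4 cortex arrays at 2 h and on 0 of 4 at 24 h, with log2 levels of 4.88, 5.20, 5.05 and 5.07 at 24 h, against 5.85, 6.25, 5.81 and 5.61 at 2 h. It was at least 1.52-fold lower at 24 h, a bound against the detection limit of the arrays. In sham cortex it was detected on 3 of 4 arrays, at 5.88, 5.34, 5.40 and 5.81, and the 24 h difference from sham did not pass (limma adjusted p = 0.0503). Pcdhb20 was at 6.00, 6.23, 6.70 and 5.81 at 24 h, against 6.74, 6.62, 6.66 and 6.90 at 2 h, with 1 of the 24 h arrays within the range of the 2 h arrays (-0.55 ± 0.15, adjusted p = 0.0249). That call was lost without 24 h array 1 or 4 or without 2 h array 4. Over the alternatives in processing, the difference of Pcdhb20 ran from -0.55 to -0.14 and that of Pcdhb19 from -0.83 to -0.12. Pcdhb3, the beta gene with the brightest probe, had group means from 7.01 to 7.33 in striatum and from 6.92 to 7.28 in cortex, with no call. Pcdhb7 and Pcdhb10 were called in no comparison either.

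Of the gamma genes Pcdhga7 and the C-type gene Pcdhgc3, which in mice promotes the branching of dendrites, were tested in striatum. Pcdhga7 was at 5.60, 5.39, 5.58 and 5.35 in striatum at 2 h, against 5.20, 5.31, 5.32 and 5.21 in sham (0.22 ± 0.15, limma adjusted p = 0.671). Pcdhgc3 was detected on 2 of 4 sham arrays and on 4, 2 and 0 of 4 arrays at 2 h, 8 h and 24 h. Neither was called, and both entered through the 2 h group alone.

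**Figure D3:**
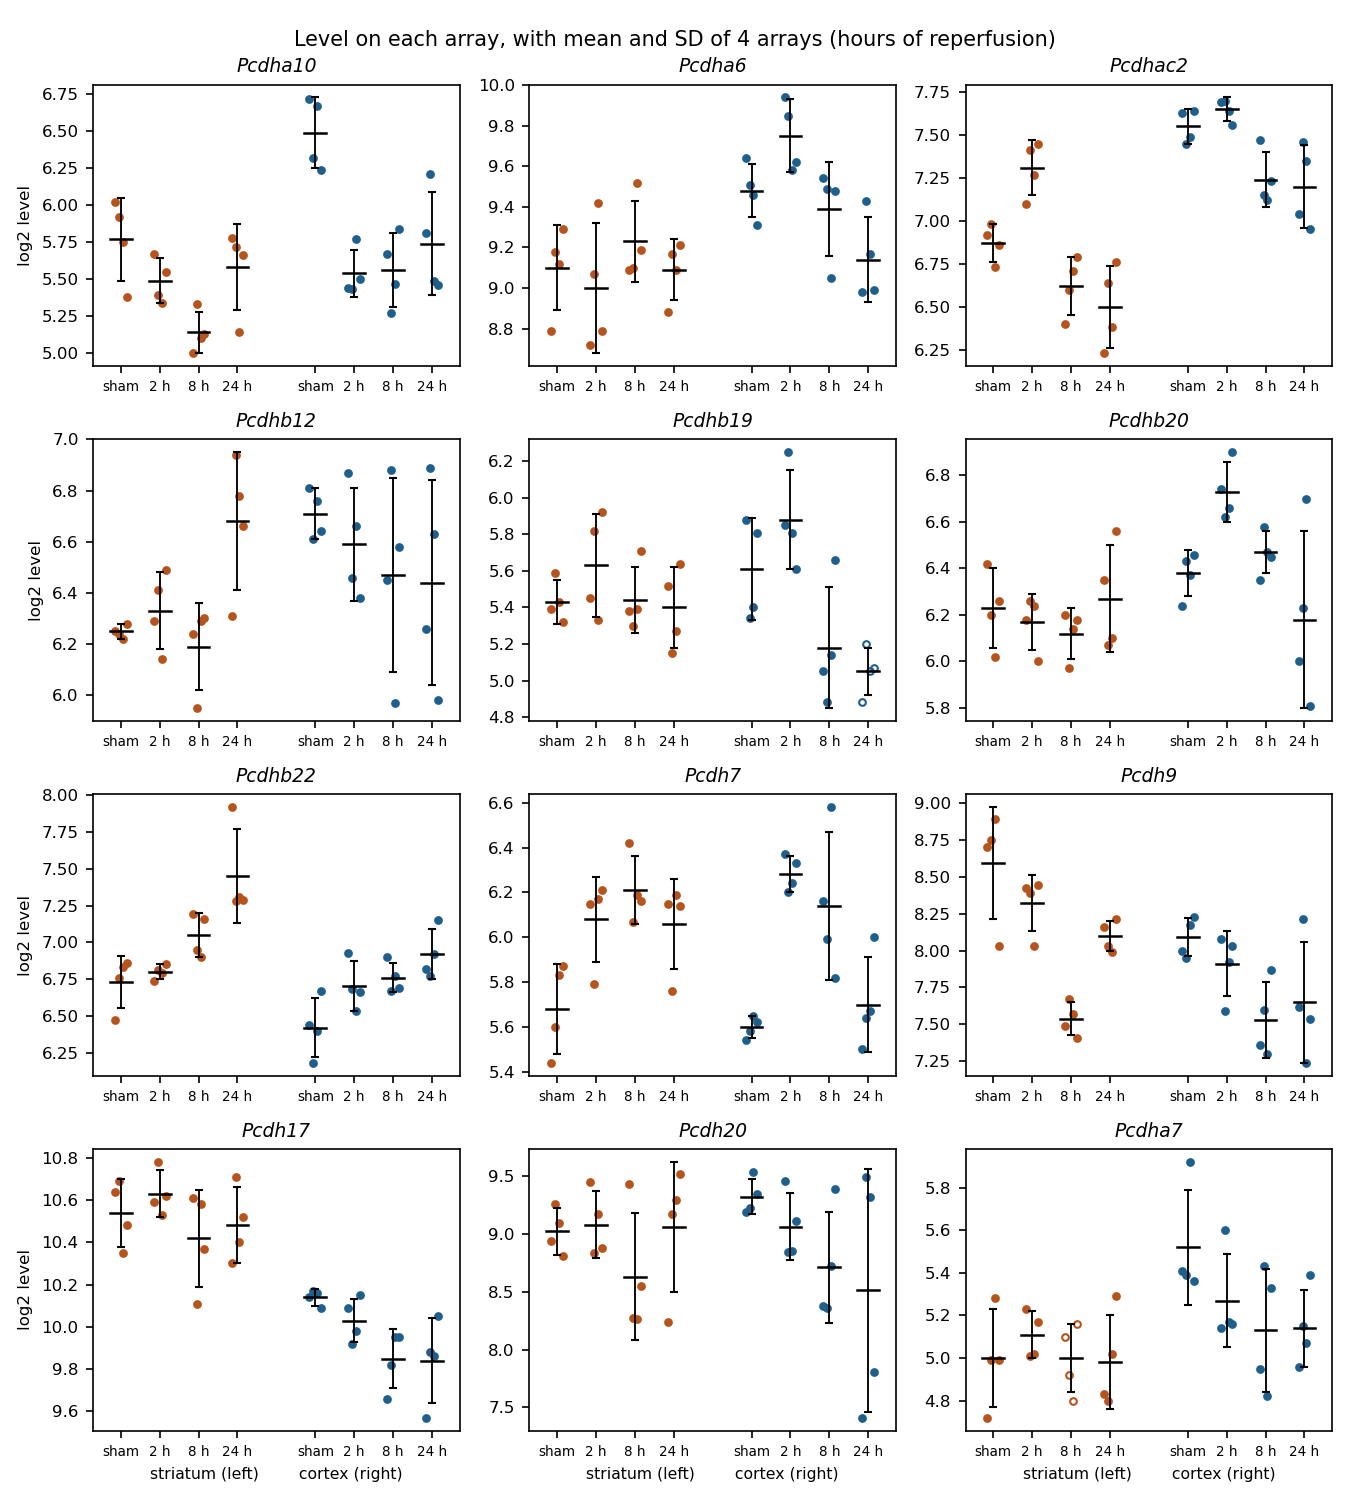
Log2 level of 12 protocadherins on each array (dots, open where the gene was detected on no array of the group), with the mean (bar) and SD (whisker) of 4 arrays per group and hours of reperfusion on the horizontal axis, striatum left and cortex right in each panel. Pcdha10 in cortex, Pcdhb22 at 24 h in both tissues, Pcdh7 in cortex at 2 h and Pcdh9 in striatum at 8 h lie apart from sham, whereas Pcdh20 spreads from 7.41 to 9.49 in cortex at 24 h.

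Of the non-clustered genes Pcdh7 rose in cortex early, Pcdh9 fell in striatum and Pcdh17 fell slightly in cortex late. Pcdh7, which can bind protein phosphatase 1, was at 5.54, 5.58, 5.65 and 5.62 in sham cortex and at 6.37, 6.20, 6.24 and 6.33 after 2 h. After 8 h it was at 6.16, 5.99, 6.58 and 5.82, and after 24 h at 5.50, 5.64, 5.67 and 6.00. All arrays of the 2 h and 8 h groups lay above sham, and the 24 h group overlapped sham. Pcdh7 has 3 probes on the array, and only the 1 used here passed the detection filter. The rise was 0.68 ± 0.15 at 2 h (limma adjusted p = 0.0368) and 0.54 ± 0.15 at 8 h (adjusted p = 0.0408), and at 24 h Pcdh7 was again lower than at 2 h (-0.58 ± 0.15, adjusted p = 0.0171). The 2 h call was lost when any array but 2 h array 2 was left out, with adjusted p up to 0.124. The 8 h call was lost when any array but 8 h array 4 was left out, and the 24 h against 2 h call without 24 h array 1. With the slide as a block neither call against sham passed (0.64 ± 0.16, adjusted p = 0.0554 at 2 h and 0.49 ± 0.16, adjusted p = 0.0735 at 8 h). Within slides the differences from sham were 0.71, 0.54 and 0.80 at 2 h and 0.19, 0.33 and 0.60 at 8 h.

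In striatum Pcdh7 was at 5.44, 5.60, 5.83 and 5.87 in sham and at 6.15, 5.79, 6.17 and 6.21 after 2 h. After 8 h it was at 6.42, 6.07, 6.19 and 6.16, and after 24 h at 6.15, 5.76, 6.19 and 6.14. The 8 h arrays lay above sham, but the difference did not pass (0.53 ± 0.15, limma adjusted p = 0.0541), nor did those at 2 h (0.40 ± 0.15, adjusted p = 0.336) and 24 h (0.37 ± 0.15, adjusted p = 0.0848).

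Pcdh9, a large adhesion protein of neurons, was at 8.70, 8.75, 8.89 and 8.03 in sham striatum and at 8.42, 8.39, 8.03 and 8.44 after 2 h. After 8 h it was at 7.49, 7.67, 7.57 and 7.41, and after 24 h at 8.16, 8.03, 7.99 and 8.21. All 8 h arrays lay below the lowest sham array, and the 24 h arrays overlapped it. Pcdh9 fell at 8 h (-1.05 ± 0.16, limma adjusted p = 0.00252), a call that held when any single array was left out, and at 24 h (-0.49 ± 0.16, adjusted p = 0.0384). Neither call passed with the series matrix values (limma adjusted p = 0.0933 at 8 h). The 24 h call held only without 24 h array 4 or without sham array 4, the low one, and was lost without any 1 of the other 6. Within slides the differences were -0.45, -1.21 and -1.24 at 8 h and -0.03, -0.86 and -0.56 at 24 h. In cortex Pcdh9 was at 7.36, 7.60, 7.30 and 7.87 at 8 h, against 8.00, 7.95, 8.17 and 8.23 in sham, which did not pass (-0.56 ± 0.18, adjusted p = 0.0623).

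Lists of cell markers differed in direction in striatum beside Pcdh9. The mean log2 level of 9 genes of striatal projection neurons was 8.20 to 8.95 in sham. It ran from 7.28 to 8.10 at 8 h and from 7.05 to 8.69 at 24 h. Of the 7 tested, 0 were called at 8 h (median -1.05) and 1 at 24 h (median -0.84). At 8 h general neuron genes had list means of 10.48 to 10.68, against 10.49 to 10.56 in sham. Those of cortical excitatory neurons were 7.79 to 8.81, against 7.45 to 7.94, and those of microglia 7.58 to 7.95, against 7.95 to 8.21. The part of any of these cells in the Pcdh9 values was not tested.

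Pcdh17, which acts at the synapses of cortex and basal ganglia in mice, had the brightest probe among the members. It was at 9.57, 9.88, 9.86 and 10.05 in cortex at 24 h, against 10.14, 10.17, 10.16 and 10.09 in sham, so the highest 24 h array lay just below the lowest sham array. It fell by 0.30 ± 0.09 on the log2 scale (limma adjusted p = 0.043), with within-slide differences of -0.04, -0.28 and -0.58, and the call was lost without any 1 of 6 of the 8 arrays (all but 24 h arrays 2 and 4). In the same comparison genes of striatal projection neurons fell for 5 of 7 (median -1.29), and the mean log2 level of that list was 6.82 to 8.04 at 24 h, against 8.10 to 8.50 in sham. Macrophage and neutrophil genes rose for 7 of 7 (median 3.04), with list means of 6.45 to 9.16 at 24 h, against 5.91 to 6.10 in sham. The part of these cells in the Pcdh17 and Pcdha10 values at 24 h was not tested. In striatum Pcdh17 had group means of 10.54 in sham, 10.63 after 2 h, 10.42 after 8 h and 10.48 after 24 h.

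Pcdh20 split the cortex arrays at 24 h. It was at 7.41, 9.49, 9.32 and 7.81 at 24 h, against 9.19, 9.22, 9.53 and 9.34 in sham, and was not called (-0.81 ± 0.35, limma adjusted p = 0.129). Arrays 1 and 4, the low ones, also had the highest macrophage and neutrophil means (9.16 and 9.09, against 6.45 and 8.09 on arrays 2 and 3). They had the lowest means of 6 choroid plexus and ependyma genes too (6.05 and 6.69, against 8.08 and 8.18). The part of these cells in the Pcdh20 values was not tested. Without 24 h array 2, which had the lowest macrophage and neutrophil mean, 9 members were called in cortex at 24 h in place of 3, and the added ones included Pcdh20 and Pcdh9. The share of all genes called without that array is not given here, so the 9 are not read as a result about the family.

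Pcdh10, which guides the axons of striatal neurons in mice, gave opposite directions on its 3 probes. The probe with the highest signal (ILMN_2727239), used for the gene, was at 7.48, 8.14, 7.96 and 8.51 in striatum at 8 h, against 8.65, 8.40, 8.41 and 8.20 in sham (-0.39 ± 0.20, limma adjusted p = 0.269 with every probe tested on its own). Probe ILMN_2663752 was at 7.58, 7.94, 8.33 and 7.78 at 8 h and 7.70, 7.92, 7.63 and 7.84 at 24 h, against 6.79, 7.28, 7.08 and 7.32 in sham, with no overlap. It was called at 8 h (0.79 ± 0.16, adjusted p = 0.0113) and at 24 h (0.66 ± 0.16, adjusted p = 0.00983). Probe ILMN_1228833 was higher after I/R than in sham in both tissues at each time, by 0.26 to 0.56, with no call. In cortex the differences from sham were -0.12 to -0.40 on the first probe and 0.28 to 0.45 on the other 2, again with no call. With the slide as a block the first probe passed in cortex at 8 h (-0.43 ± 0.12, adjusted p = 0.0437). A direction for Pcdh10 as a gene can therefore not be given. Which exons the 3 probes read was not analysed here.

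**Figure D4:**
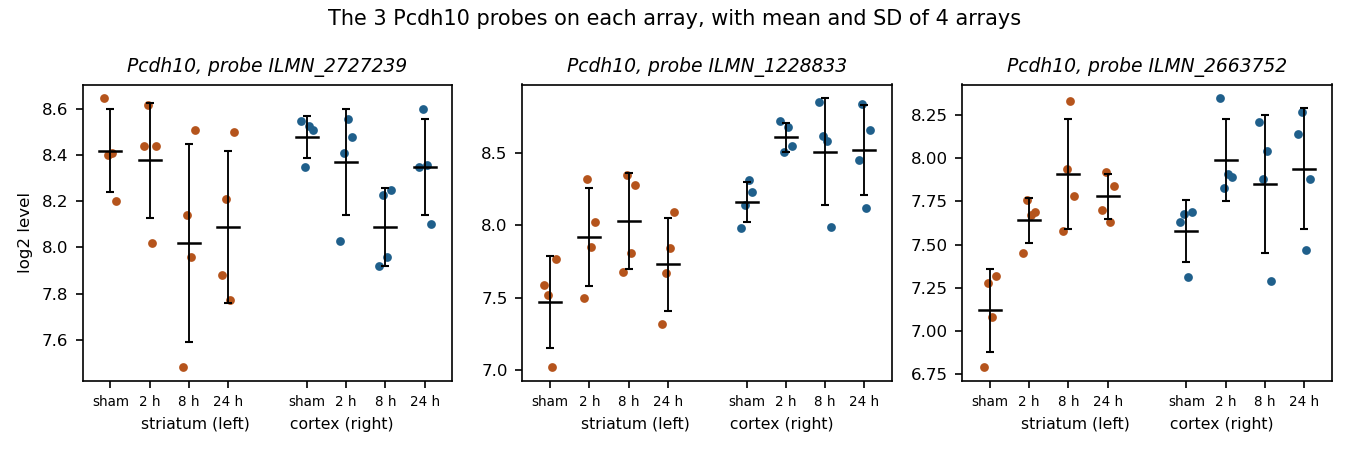
Log2 level of Pcdh10 on each array (dots) by probe, one panel per probe, with the mean (bar) and SD (whisker) of 4 arrays per group and hours of reperfusion on the horizontal axis. The left panel shows the probe used for the gene, whose mean is lower at 8 h than in sham in both tissues, and the other panels the probes whose means are higher after I/R, such as ILMN_2663752 in striatum (mean 7.91 at 8 h, against 7.12 in sham).

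Pcdh8, also called arcadlin, a gene that neuronal activity switches on in rat hippocampus, was at 5.56, 5.56, 6.16 and 5.77 in striatum at 2 h, against 5.46, 5.19, 6.00 and 5.21 in sham (0.30 ± 0.26, limma adjusted p = 0.745). In cortex it was at 6.15, 4.99, 5.94 and 5.40 at 2 h, against 5.48, 5.17, 5.80 and 5.70 in sham (0.08 ± 0.22, adjusted p = 0.892). Early response genes rose in the same comparisons for 3 of 8 in striatum and 4 of 8 in cortex (median 2.07 and 1.99). Pcdh21 was at 6.61, 6.68, 7.41 and 6.63 in cortex at 24 h, against 7.12, 7.38, 7.84 and 7.43 in sham (-0.61 ± 0.24, adjusted p = 0.0901), and passed with the slide as a block (-0.76 ± 0.22, adjusted p = 0.0241). Pcdh15, a part of the tip links of inner ear hair cells, was detected on 5 striatum and 1 cortex arrays and was not tested.

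Between the sham tissues, 7 of 22 members were called, beside 26.7% of all tested genes. With the slide as a random block 5 were. The share of all genes under that block is not given here, so the 5 show only a change with the processing. In the authors' series matrix values none was called, but there every class median of this difference was near 0 (-0.01 for the beta and the non-clustered genes). The centring of these values is unknown, and values centred within each tissue would hold no tissue difference. This count therefore cannot bear on the calls. Pcdhac2 was at 6.92, 6.98, 6.73 and 6.86 in sham striatum, against 7.63, 7.45, 7.49 and 7.64 in sham cortex (-0.68 ± 0.13, limma adjusted p = 0.000183). Pcdha6 was also lower (-0.39 ± 0.14, adjusted p = 0.0425), again without overlap of the groups. The differences of Pcdha10 (-0.72 ± 0.17) and Pcdha7 (-0.53 ± 0.16), both among the 7, are descriptions, since the sham cortex arrays also made the Pcdha10 value known beforehand and were the only group that brought Pcdha7 into the test. Pcdhac1 had the same direction without a call (-0.35 ± 0.20, adjusted p = 0.191). Of the 8 beta genes Pcdhb12 was lower in striatum (-0.46 ± 0.17, adjusted p = 0.0473). The call of Pcdha6 was lost without any 1 of 6 of the 8 arrays, and that of Pcdhb12 without any 1 of the 8, and neither passed with the slide as a random block (adjusted p = 0.0556 for Pcdha6 and 0.0627 for Pcdhb12).

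Of the non-clustered genes Pcdh17 was at 10.64, 10.69, 10.35 and 10.48 in sham striatum, against 10.14, 10.17, 10.16 and 10.09 in sham cortex, and was higher there (0.40 ± 0.11, limma adjusted p = 0.00658). Pcdh9 was also higher in striatum (0.50 ± 0.17, adjusted p = 0.0287), though sham striatum array 4 (8.03) lay within the cortex range, and the call was lost without any 1 of 5 arrays (sham striatum arrays 1, 2 and 3, sham cortex arrays 1 and 2). In these groups genes of oligodendrocytes were higher in striatum for 8 of 9 (median 0.83), with list means of 11.02 to 11.29 in sham striatum and 10.43 to 10.51 in sham cortex. The part of these cells, and of the cortical and thalamic neurons named above, in the protocadherin differences was not tested.

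**Figure D5:**
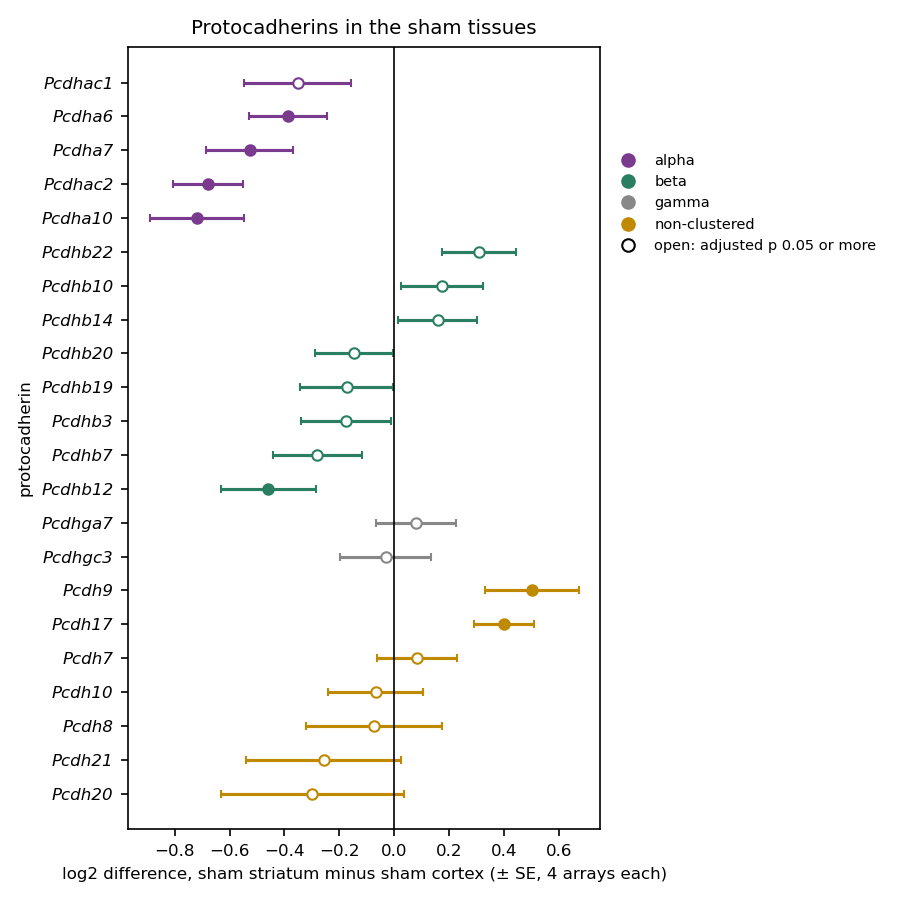
Log2 difference of each tested protocadherin between the sham tissues (striatum minus cortex) ± standard error, with 4 arrays per group, coloured by class and filled where the adjusted p was under 0.05 (Pcdha10 and Pcdha7 are given as descriptions). All 5 alpha genes lie left of 0 (lower in striatum), and Pcdh9 and Pcdh17 lie farthest right.

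The difference between the responses of the tissues (I/R minus sham in striatum, minus the same in cortex) was called for 0 of 22 members at 24 h, beside 1.78% of all tested genes. It was called for 0 at 2 h (0% of all genes) and 0 at 8 h (0.0198%), comparisons added after the data were seen. At an unadjusted p under 0.05 there were 2 members at 2 h (5.54% of all tested genes), 2 at 8 h (4.77%) and 5 at 24 h (19.7%), with Pcdha10 among those at 2 h and 24 h. The members with the lowest p at 24 h were Pcdhb14 (0.59 ± 0.20, limma adjusted p = 0.107) and Pcdhb12 (0.69 ± 0.24, adjusted p = 0.113). So Pcdh9 in striatum and Pcdh7 in cortex were not shown to respond differently in the other tissue. Without cortex 24 h array 2, Pcdhb12 and Pcdhb14 passed at 24 h, and without sham striatum array 2 Pcdhb14 did.

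Counts of genes around the protocadherins are read beside the shares of all genes called, which were 7.13% in cortex at 8 h, 14.1% in cortex at 24 h, 17.6% in striatum at 24 h and 18.3% for 24 h against 2 h in striatum, and nothing particular to a list is read from them. Of 13 tested genes that choose and maintain clustered promoters, 0 rose and 1 fell in cortex at 8 h, 0 rose and 2 fell in cortex at 24 h, and 1 rose and 1 fell in striatum at 24 h. The cohesin subunit Stag2 (-0.30 ± 0.09, limma adjusted p = 0.0331) and the cohesin regulator Pds5b (-0.42 ± 0.12, adjusted p = 0.0253) were lower in cortex at 24 h. In striatum at 24 h the DNA methyltransferase Dnmt1 was higher (0.45 ± 0.11, adjusted p = 0.00977) and the cohesin loader Mau2 lower (-0.36 ± 0.11, adjusted p = 0.0295). At 24 h against 2 h in striatum 3 rose and 1 fell, with Smc3 at 0.66 ± 0.19 (adjusted p = 0.0253) and Dnmt3b at 0.65 ± 0.15 (adjusted p = 0.00881). The insulator protein gene Ctcf was called in no comparison.

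Of 24 tested genes of protocadherin signalling and processing in striatum, 2 rose and 2 fell at 24 h, and of 23 in cortex 2 rose and 3 fell. Marcks, an actin-binding substrate of protein kinase C, was lower in cortex at 8 h (-0.46 ± 0.08, limma adjusted p = 0.00539) and at 24 h (-0.46 ± 0.08, adjusted p = 0.00308). The WAVE complex gene Cyfip2 was higher in striatum at 24 h (0.76 ± 0.18, adjusted p = 0.00939) and the synaptic adhesion gene Nlgn2 lower (-0.85 ± 0.16, adjusted p = 0.00336). Of 18 other cadherins, 1 rose and 3 fell in striatum at 24 h: Cdh2, N-cadherin, was higher (0.38 ± 0.13, adjusted p = 0.0491), and Celsr2 (-0.89 ± 0.26, adjusted p = 0.0288), Celsr3 (-0.78 ± 0.15, adjusted p = 0.00359) and Cdh13 (-0.48 ± 0.15, adjusted p = 0.035) were lower. In cortex at 24 h 1 of the 18, Cdh1, was higher (0.65 ± 0.20, adjusted p = 0.0416). Of 5 catenins, which tie classical cadherins to actin, Ctnnb1 rose in striatum (0.59 ± 0.09, adjusted p = 0.00181) and Ctnna1 in cortex (0.38 ± 0.10, adjusted p = 0.0145) at 24 h.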

How the data were processed

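RNA of right striatum and right cortex was read on Illumina MouseRef-8 v2 bead arrays, with 32 arrays in 8 groups. The authors deposited probe intensity values from BeadStudio 3.3.7 without normalization, per the labels. The deposited tables also hold detection p-values, a fraction that the authors' BeadStudio gave for each probe or gene, per the file headers. Detection in cortex, whose own table has one value per gene, was read by interpolation of intensity against the p-value, a step that in striatum put at least 99.9% of probes on the same side of 0.05. The deposited series matrix holds a linear ratio per probe, with column medians of 0.946 to 1.02. Its differences between arrays correlated at 0.874 to 0.970 with those used here, and its centring is unknown. From the table of all arrays, 8 columns of no sample and 837 probes with no value were left out. Replicate numbers in that table and in the sample descriptions differed for all 32 arrays while the groups were the same, so arrays are named by the table.

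Intensities were background-corrected by normexp from the detection p-values with an offset of 16, quantile-normalized over all 32 arrays and put on the log2 scale. The probe with the highest mean stood for a gene. Tests used limma 3.58.1 in R 4.3.3 (lmFit and eBayes with a trend), with Benjamini-Hochberg adjustment over all tested genes and a threshold of 0.05. Alternatives covered scaling, background, offset, detection filter, the tissue tables, the series matrix, slide and replicate blocks, the compared groups alone and each array left out. For cortex 24 h against 2 h, same-numbered arrays deviated together in every pair (correlations of 0.15 to 0.32, from the data), and there the number is also the slide. For cortex 2 h against sham the correlations were also above 0 (0.03 to 0.25), with the higher ones in arrays 1 and 4, which share a slide. The other comparisons within a tissue had correlations below 0. Scripts were tested on simulated data. Precision is limited by 4 arrays per group. Named with values are members called in a comparison and the detected member with the highest level of each class. Pcdh8, Pcdh10, Pcdh20, Pcdh21, Pcdhac1, Pcdhb14, Pcdhgc3, Pcdhgc4 and Pcdhgc5 were chosen after their values were seen. The members and the gene lists were chosen with earlier results of these data known.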

Additional observations from a re-analysis of the deposited data

Results flagged for a closer look

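In 96 groups of 4 arrays, for the 13 members named most, 8 had a highest or lowest array that stood apart from the other 3 by Dixon's test, beside about 1 in 20 by chance. In striatum the lowest array of Pcdh7 was at 5.79 at 2 h and at 5.76 at 24 h. Pcdh9 had a lowest array of 8.03 in striatum at 2 h, and Pcdhb12 one of 5.95 in striatum at 8 h. The highest array of Pcdhb22 in striatum at 24 h was at 7.92. In cortex the lowest array of Pcdha6 at 8 h was at 9.05, and the highest arrays of Pcdha7 were at 5.60 at 2 h and at 5.92 in sham.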

How the results depend on the processing

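Of the 26 calls of members, 11 held whichever array was left out. Only 6 of the 26 held under every alternative that tested the member as well, among them Pcdha10 in cortex at 8 h and 24 h. The 11 include values given above as descriptions. These are Pcdha10 in cortex at 8 h and 24 h and between the sham tissues. Pcdhb19 in cortex for 24 h against 2 h is another. With each array left out in turn, the number of members called ran from 0 to 2 in cortex at 2 h (2 with all arrays), 1 to 5 at 8 h (2) and 1 to 9 at 24 h (3). In striatum it stayed at 0 at 2 h (limma, 2 at an unadjusted p under 0.05) and ran from 1 to 2 at 8 h (2) and 1 to 3 at 24 h (3). It ran from 2 to 6 for 24 h against 2 h in cortex (5), 2 to 3 in striatum (2), 4 to 7 between the sham tissues (7) and 0 to 2 for the 24 h response difference (0). The counts in this section have no share of all genes beside them, and show only how far they move with the processing.

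Median scaling gave 1 in cortex at 8 h and 5 at 24 h, 1 in striatum at 24 h and 4 between the sham tissues. The deposited tissue table gave 1 in cortex at 2 h and 1 at 8 h, with Pcdh7 not among the genes tested there. Testing only genes detected on every array, which tests fewer members, gave 0 in cortex at 2 h, 0 at 8 h and 3 at 24 h against 2 h, and 1 in striatum at 8 h. Series matrix values gave 1 in cortex at 2 h, 1 at 8 h and 3 for 24 h against 2 h. In striatum they gave 0 at 8 h and 0 at 24 h. Between the sham tissues they gave 0, with Pcdh17 (-0.02), Pcdh9 (-0.04) and Pcdha7 (0.00) all near 0. Values centred within each tissue would hold no tissue difference, and the centring is unknown, so nothing is read from this last count or these signs. Fitting the compared groups alone gave 4 in cortex at 8 h, 1 at 24 h and 3 for 24 h against 2 h, and 1 in striatum at 24 h. Without a detection filter there was 1 in striatum at 8 h and 4 for 24 h against 2 h. The slide as a block gave 1 in cortex at 2 h. The replicate block gave 5 in cortex at 24 h and 1 in striatum at 24 h. In these 24 h comparisons with sham the correlations of same-numbered arrays ran from -0.28 to 0.09. For cortex 24 h against 2 h the replicate block kept the 5 called members. The causes were not tested. Signals near the detection limit bound what could be seen of the gamma genes.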
